A study of Homo sapiens with 13 samples.

Results

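Windows of RNA from protein-coding transcripts that were recovered with SRSF2 P95H and hardly at all with wild-type SRSF2 (WT) are described here. SRSF2 is a splicing factor, and its binding was measured in HEL cells, a human erythroleukemia line, by HITS-CLIP, which fixes RNA to a tagged protein with UV light, pulls the protein down and sequences the RNA that comes with it. The windows were chosen from the authors' deposited comparison of P95H with WT by 2 conditions. The transcript had to be protein-coding, and the authors' WT mean had to lie under 0.2 CPM (counts scaled to a common library total). Each position was counted once, by its first entry, and overlapping windows of 1 strand were merged into regions. This gave 508 windows in 424 regions of 382 genes, out of 8100 windows in 3766 regions of the whole table. They made up 51.7% of the 982 protein-coding windows that were higher with P95H. The WT mean chose these windows, and the authors' fold change and adjusted p came from the same comparison, so those values are given as a description.

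The HITS-CLIP groups were 4 P95H samples and 4 WT samples of HEL cells with a stably transfected SRSF2 construct, given doxycycline at 1 µg/ml for 36 hours and immunoprecipitated through a Flag tag. The RNA-seq groups were 2 P95H samples and 2 WT samples given the same dose for 48 hours, and 1 P95H sample labelled uninduced, all after depletion of rRNA. Every group carried such a construct in the HEL line, and the labels name no line without one and do not say whether a line is 1 clone. They call the numbered samples biological replicates and say nothing of separate cultures, so p-values measure the spread between these samples. RNA-seq totals came to 38052389 and 44618943 counts for P95H, 45005605 and 42112595 counts for WT and 37414093 for the uninduced sample, and 3 counts corresponded to 0.0667 to 0.0802 CPM. SRSF2 itself stood at 231 and 251 CPM in P95H, 224 and 231 CPM in WT and 286 CPM in the uninduced sample. These counts do not separate the construct from the endogenous gene, nor P95H from WT. Of 12 erythroid and megakaryocytic markers, 11 were over 1 CPM in all 5 libraries. The exception was PF4, and the summed level of the 12 ranged from 1727 to 2235 CPM. Of 10 genes listed as markers of other cells, PECAM1 alone was over 1 CPM in all 5 libraries, and EPCAM and KRT19 had no counts. PECAM1 stood at 213 to 316 CPM, and its level is not read as a sign of other cells.

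SRSF2 is a member of the SR protein family. It binds short exonic sequences through its RNA recognition motif and helps the splicing machinery to include the exon. WT SRSF2 is known to bind both CCNG and GGNG motifs, where N is any base, and the P95H substitution, recurrent in myelodysplastic syndromes, lies beside the RNA recognition motif and is known to shift the preference towards CCNG.

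Of the 508 windows, 12 windows in 7 genes lay inside the promoter windows of the RefSeq table for GRCh38.p14, which run from 250 bases before to 50 bases after each gene's start. Their letters could be read from that table, and 1 window of each gene is shown, 5′ to 3′ on the strand of the deposited window. The files use GRCh38.p3, per the submitters' processing notes, and do not say whether starts count from 0 or 1, so the letter at the lowest coordinate may lie 1 base outside the window. Capitals mark CCNG and GGNG matches, and the authors' means follow the sequences.
ELMO1: gctGGGGCGagcgGGAGcggg
UBB: tcCCTGtgGGTGgacgtggtt
ATP6V1G2: gtGGAGgactgcagcaacgag
USP11: aagagaacggacGGCGatggc
SNRPD2: tcctcaggcagcagcaacgcg
NPIPA7: aatatattgagatttgctgga
TXNDC12: agagggtctgtaaaagtcaag

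The ELMO1 window, at chr7:37448827-37448847 on the minus strand, had an authors' mean of 3.21 ± 3.04 CPM (SEM) in P95H and 0 CPM in WT. The overlapping window at chr7:37448826-37448846 had the same P95H mean and 0.07 CPM in WT. ELMO1 is a partner of DOCK proteins in activating Rac, and its window held 3 GGNG matches, 2 of them overlapping. UBB, a polyubiquitin gene, had 1.98 ± 0.86 CPM (SEM) in P95H and 0.1 CPM in WT at chr17:16381131-16381151 on the plus strand, and its window held 1 match of each motif. ATP6V1G2, a subunit of the vacuolar proton pump, had 2.65 ± 2.6 CPM (SEM) in P95H and 0.02 CPM in WT at chr6:31546646-31546666 on the minus strand. USP11, a deubiquitinase, had 1.67 ± 1.62 CPM (SEM) in P95H and 0.09 CPM in WT at chrX:47233028-47233048 on the plus strand. These 4 windows held a motif. The other 3 held none on the strand shown. SNRPD2, a core protein of spliceosomal snRNPs, had 0.66 ± 0.34 CPM (SEM) in P95H and 0.02 CPM in WT at chr19:45691926-45691946 on the minus strand. NPIPA7 had 0.99 ± 0.95 CPM (SEM) in P95H and 0.07 CPM in WT at chr16:16379074-16379094 on the plus strand. The TXNDC12 window, at chr1:52033861-52033881 on the minus strand, lay at the start of KTI12, and had 0.51 ± 0.5 CPM (SEM) in P95H and 0.11 CPM in WT.

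Over all 12 windows, CCNG occurred in 1 and GGNG in 7, counting every match and searching the strand of the window. On the other strand CCNG occurred in 7 and GGNG in 0 of the 12. Windows of 1 gene overlapped, with 3 in ELMO1, 3 in NPIPA7 and 2 in USP11, so the 12 are not separate observations. Among the other protein-coding windows higher in P95H that could be read in the same way, CCNG occurred in 3 and GGNG in 10 of 13. Among windows higher in WT with a P95H mean under 0.2 CPM the counts were 3 and 12 of 20, and among the remaining windows higher in WT they were 11 and 17 of 28. In 70232 windows of 21 bases after the start of every gene in the RefSeq table, 38.8% held CCNG and 38.9% held GGNG. On the other strand CCNG and GGNG occurred in 8 and 1 of the 13, 10 and 8 of the 20, and 14 and 6 of the 28, and in 41.3% and 31.0% of the windows at all gene starts. The readable windows all lie at gene starts, so they describe a small corner of the 508.

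Across the 508 windows the authors' P95H mean ranged from 0.46 to 4.32 CPM with a median of 1.04 CPM, and the WT mean from 0 to 0.19 CPM with a median of 0.07 CPM. The WT mean was listed at 0 in 53 windows, at 0.01 to 0.09 CPM in 250 and at 0.1 to 0.19 CPM in 205. In the authors' deposited table the log2 change of P95H over WT ranged from 1.39 to 8.23 with a median of 3.615, and the adjusted p from 1.68e-15 to 0.0439 with a median of 6.94e-06. Levels were low on both sides. The 474 protein-coding windows higher in P95H with a WT mean from 0.2 CPM had a median of 2.35 CPM in P95H and 0.52 CPM in WT. Of the 424 regions, 361 consisted of 1 window, and in 26 of the 63 others all windows had the same P95H mean, so neighbouring windows can count the same reads. PPAPDC2 had 6 windows in a single region and KLF3, a Krüppel-like transcription factor, had 5. KLF3 had 2.23 ± 2.18 CPM (SEM) in P95H and 0 CPM in WT.

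Windows on either side of the limit were alike. Just inside, 2 windows of the nucleolar chaperone NPM1, which form 1 of its 2 regions, had 2.96 ± 2.41 CPM (SEM) in P95H and 0.19 CPM in WT. The other NPM1 region had 2.91 ± 2.36 CPM in P95H and 0.04 CPM in WT, away from the limit. Also just inside, 1 window of the histone-fold protein CHRAC1 had 2.6 ± 2.04 CPM in P95H and 0.19 CPM in WT. Just outside, another CHRAC1 window had 2.57 ± 1.99 CPM in P95H and 0.2 CPM in WT, the mitochondrial deacylase SIRT5 had 2.35 ± 1.75 CPM in P95H and 0.2 CPM in WT, and a further CHRAC1 window had 2.3 ± 2.04 CPM in P95H and 0.2 CPM in WT. In all, 20 windows stood at 0.19 CPM and 17 at 0.2 CPM, so the limit passes through CHRAC1 without a gap.

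The table gives a mean and a standard error (SEM) per genotype, which limit how the 4 P95H libraries can share the signal. SEM divided by the mean is 0 where all libraries are equal and 1 where a single library holds everything, and it sets a lowest and a highest possible share for the top library. Rounding of the deposited values to 0.01 CPM was carried into these bounds. Across the 508 windows the ratio ranged from 0.307 to 0.996 with a median of 0.811. The bounds on the top library's share had medians of 84.6% and 86.3%. One library held over 50% of the summed level in at least 437 windows (86.0%), over 75% in 330 (65.0%) and over 90% in 194 (38.2%). In 71 windows the top library may have held under 50%, and in 1 it must have. Which library was on top, and whether it was the same one from window to window, the table does not show.

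**Figure D1:**
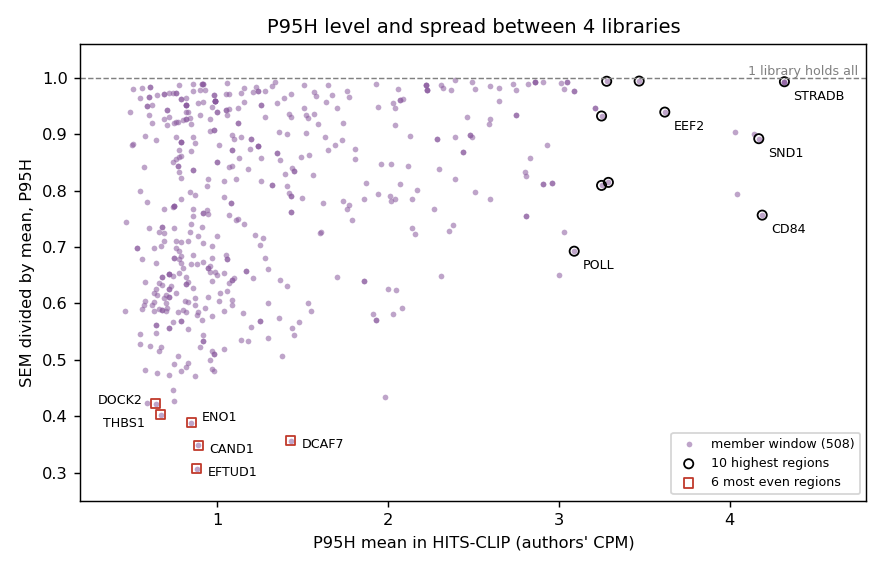
SEM divided by the mean of P95H (vertical axis, no unit) against the authors' P95H mean in CPM (horizontal axis) for each of the 508 windows, with the 10 highest regions circled and the 6 most even in squares. The dashed line marks the value 1, at which a single library would hold all of the level, and the median of the windows is 0.811.

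High spread was common in the whole table. The SEM ratio of the higher genotype had a median of 0.672 in the other windows higher in P95H, of 0.882 in the 841 windows higher in WT with a P95H mean under 0.2 CPM, and of 0.706 in the remaining 3258 windows higher in WT. One library held over 50% in 86.0% of the 508 windows, against 70.3%, 91.8% and 76.7% of those 3 classes. The authors' adjusted p did not follow the evenness of the libraries. In the authors' deposited table its median was 4.88e-05 over the 71 windows whose top library may have held under 50%, 8.81e-05 over the 107 windows at 50% to 75%, 4.1e-06 over the 136 windows at 75% to 90% and 1.54e-06 over the 194 windows above 90%. The P95H median was 0.85, 0.85, 1.26 and 1.22 CPM in the same 4 classes. The authors' log2 change had medians of 3.36, 2.9, 3.605 and 4.23. Windows in which 1 library held over 90% thus had the lowest median adjusted p of the 4 classes, and also the highest median log2 change.

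With the top library set aside, the mean of the other 3 P95H libraries was under 0.2 CPM, the limit that was set for WT, in 220 windows, and at least 0.2 CPM in 266. In 22 windows it could lie on either side. No comparison with the WT mean is drawn from these values, since the WT mean chose the windows.

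The highest regions lay mostly in genes with 1 dominant library. STRADB, a pseudokinase that activates LKB1, had the highest level, at 4.32 ± 4.29 CPM (SEM) in P95H and 0.01 CPM in WT (chr2:201451863-201451890, plus strand). Its top library held 99.3% to 99.7% of the level, and the other 3 averaged 0.02 to 0.0401 CPM. RLF, a zinc finger transcription factor, had 3.47 ± 3.45 CPM in P95H and 0.01 CPM in WT (chr1:40240477-40240497, plus strand). TTC3, a ubiquitin ligase, had 3.28 ± 3.26 CPM in P95H and 0.03 CPM in WT (chr21:37201599-37201619, plus strand). In RLF and TTC3 the other 3 P95H libraries averaged at most 0.0301 CPM. In the authors' deposited table these 3 genes had log2 changes of 7.15, 6.79 and 6.65.

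Among the others, 3 high regions had a top library of over 90%. SND1, a Tudor domain protein of RNA silencing and transcription, had 4.17 ± 3.72 CPM in P95H and 0.03 CPM in WT (chr7:128089624-128089650, plus strand), and its other 3 libraries averaged 0.44 to 0.475 CPM. EEF2, the translation elongation factor that moves the ribosome along, had 3.62 ± 3.4 CPM in P95H and 0.1 CPM in WT (chr19:3977550-3977570, minus strand), and its other 3 averaged 0.21 to 0.234 CPM. The remaining one was ELMO1, whose highest window had 3.25 ± 3.03 CPM in P95H and 0.06 CPM in WT, and whose other 3 libraries averaged 0.21 to 0.235 CPM. In these 3 genes the lower P95H libraries averaged at least 0.21 CPM.

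CD84, POLL, PHGDH and RPS10-NUDT3 were the least uneven of the 10 highest. The CD84 and POLL regions lay under a gene on the opposite strand. CD84, a receptor of the SLAM family, had 4.19 ± 3.17 CPM in P95H and 0.07 CPM in WT (chr1:160546701-160546737, minus strand), with 1.01 to 1.13 CPM as the average of its other 3 libraries. POLL, a DNA polymerase of base excision repair, had 3.09 ± 2.14 CPM in P95H and 0.17 CPM in WT (chr10:101583629-101583650, minus strand), with 0.94 to 1.11 CPM in the other 3. PHGDH, the first enzyme of serine synthesis, had 3.25 ± 2.63 CPM in P95H and 0.14 CPM in WT (chr1:119727010-119727030, plus strand). Its other 3 libraries averaged 0.61 to 0.674 CPM. RPS10-NUDT3, a readthrough transcript of a ribosomal protein gene and its neighbour, had 3.29 ± 2.68 CPM in P95H and 0.13 CPM in WT (chr6:34293511-34293531, minus strand), in a place that it shares with another gene of the same strand.

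The 6 most even regions had lower levels, between 0.64 and 1.43 CPM in P95H. EFTUD1, a GTPase of late ribosome maturation, had 0.88 ± 0.27 CPM (SEM) in P95H and 0.01 CPM in WT (chr15:82262199-82262226, minus strand), and its top library held 32.5% to 48.6%. It held the 1 window whose top library must have held under 50%. CAND1, an exchange factor of cullin ubiquitin ligases, had 0.89 ± 0.31 CPM in P95H and 0.06 CPM in WT, and DCAF7, a WD repeat protein, 1.43 ± 0.51 CPM in P95H and 0.06 CPM in WT. The glycolytic enzyme ENO1 had 0.85 ± 0.33 CPM in P95H and 0.11 CPM in WT. THBS1, the platelet matrix protein thrombospondin 1, had 0.67 ± 0.27 CPM in P95H and 0.04 CPM in WT. DOCK2, a Rac activator of blood cells, had 0.64 ± 0.27 CPM in P95H and 0.01 CPM in WT. In every one of the 6 the other 3 P95H libraries averaged at least 0.36 CPM. Their adjusted p in the authors' deposited table ranged from 1.9e-07 for DCAF7 to 0.00039 for ENO1, above those of the 10 highest regions, which were 2.3e-09 or lower.

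**Figure D2:**
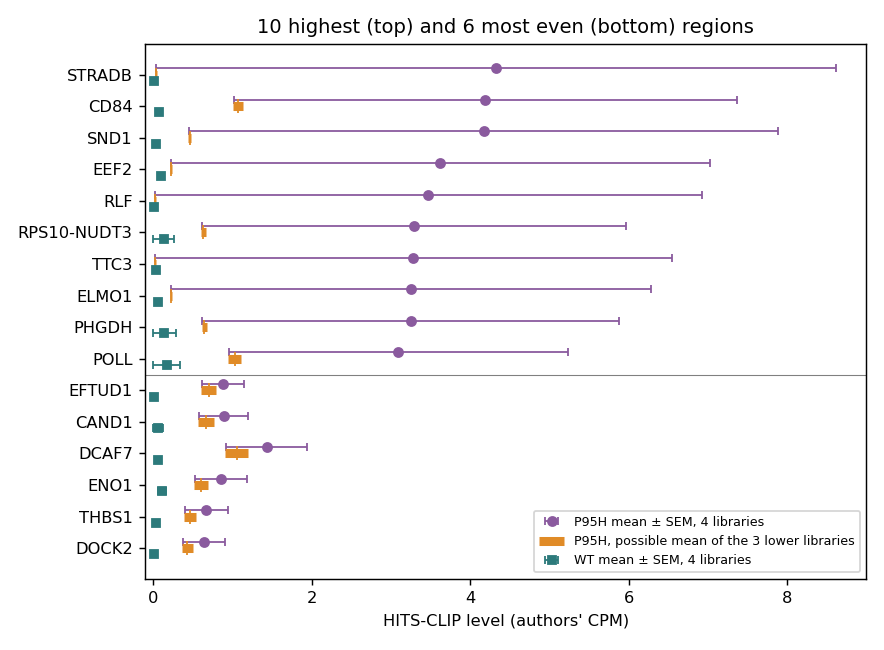
Authors' mean ± SEM in CPM (horizontal axis) of P95H (circles, 4 libraries) and WT (squares, 4 libraries) for the 10 highest regions above the line and the 6 most even below it. Orange bars give the possible mean of the 3 lower P95H libraries, which is at most 0.0401 CPM in STRADB and at least 0.6 CPM in EFTUD1.

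Most host genes held 1 region. There were 348 such genes, 27 with 2 regions and 7 with 3 or more. SOD2, the mitochondrial superoxide dismutase, had 4 regions, with P95H means of 0.92, 1.77, 1.14 and 0.96 CPM and WT means of 0.01, 0.19, 0.1 and 0.09 CPM. The SOD2 regions all lay beyond 88.0% of the gene's length, and their top libraries held at least 79.4%, 81.1%, 91.2% and 69.3%. HDC, the histidine decarboxylase that makes histamine, had 3 regions with 1.38, 1.63 and 2.6 CPM in P95H and 0.07, 0.03 and 0.04 CPM in WT. LUC7L3, a protein linked to the U1 snRNP, had 3 regions with 1.59, 1.05 and 1.26 CPM in P95H and 0.19, 0.05 and 0.17 CPM in WT, each with a top library of at least 88.2%. ATP9B, C4orf32, IST1 and MED12L had 3 regions each, with P95H means between 0.68 and 1.58 CPM and WT means of 0.01 to 0.19 CPM. In the Mediator gene MED12L, 1 region at 1.34 CPM in P95H left at most 0.0201 CPM to the other 3 libraries.

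Over all 1591 genes with a protein-coding window in the table, 382 (24.0%) held at least 1 of the 424 regions, and 1134 (71.3%) held a window higher in WT. Of the genes in 18 lists by function, 325 had a protein-coding window and 79 held a region, and 303 host genes were in no list. The splicing regulators and hnRNPs had 9 of 30 genes with a region and 27 of 30 with windows higher in WT. RBM39, a U2AF-related splicing factor, had 1.23 ± 1.21 CPM in P95H and 0 CPM in WT, and HNRNPU 1.5 ± 1.18 CPM in P95H and 0.19 CPM in WT. RBM25 had 1.43 ± 1.09 CPM in P95H and 0.12 CPM in WT in 4 windows, beside 25 windows of the same gene that were higher in WT. Among SR proteins, SRSF5 alone of 7 genes held a region, with 2.02 ± 1.58 CPM in P95H and 0.08 CPM in WT, and 6 of the 7 had windows higher in WT. Spliceosomal proteins had 5 of 23, led by the U2 snRNP protein SF3B2 with 2.86 ± 2.84 CPM in P95H and 0.01 CPM in WT, a value that rests on a top library of at least 99.2%.

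Glycolysis and central carbon metabolism had 7 of 13 genes with a region, and 5 of 13 with windows higher in WT. The 7 were PHGDH, IDH2, ENO2, TALDO1, TPI1, ENO1 and PGK1. IDH2, the mitochondrial isocitrate dehydrogenase, had 3 ± 1.95 CPM in P95H and 0.17 CPM in WT, and the enolase ENO2 2.39 ± 1.96 CPM in P95H and 0.14 CPM in WT. The triosephosphate isomerase TPI1 had 0.88 ± 0.59 CPM in P95H and 0.13 CPM in WT in 1 of its 2 regions. Megakaryocyte and platelet genes had 3 of 3, and none of the 3 had a window higher in WT. They were RUNX1 (2.37 ± 2.32 CPM in P95H and 0.03 CPM in WT), THBS1 and ITGA2B, which encodes the platelet integrin alpha IIb (0.66 ± 0.42 CPM in P95H and 0.13 CPM in WT). The top library held at least 98.1% in RUNX1 and 64.5% in ITGA2B.

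Cytoskeletal genes had 10 of 27 with a region, led by the nonmuscle myosin MYH10 with 2.39 ± 2.14 CPM in P95H and 0 CPM in WT. Translation factors had 6 of 22 and ribosomal proteins 5 of 29, with EIF4G2 at 1.62 ± 1.26 CPM in P95H and 0.15 CPM in WT and RPL10 at 1.48 ± 0.84 CPM in P95H and 0.09 CPM in WT. Chromatin genes had 6 of 49 with a region and 46 of 49 with windows higher in WT. EP300, a histone acetyltransferase, had 1.26 ± 1.2 CPM in P95H and 0.05 CPM in WT. RNA decay genes had 5 of 25, among them ADAR, the RNA editing enzyme, with 2.59 ± 2.38 CPM in P95H and 0 CPM in WT. Cell cycle genes had 4 of 23, led by the replication licensing factor CDC6 with 3.01 ± 2.98 CPM in P95H and 0.03 CPM in WT. The share of a list was read against no test, and the lists differ in how many of their genes have a window at all.

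Along the genes, regions were most frequent near the end. Of the 424 regions, 122 (28.8%) lay in the last 10% of their gene and 58 (13.7%) in the first 10%, with a median position at 67.5% of the gene's length. The last 10% held 26.9% of the other regions higher in P95H, 20.5% of the regions higher in WT with P95H under 0.2 CPM and 18.4% of the remaining regions higher in WT. The first 10% held 9.74%, 14.7% and 9.47% of them. The highest region of SND1 lay at 99.3% of its gene, RLF at 99.5% and TTC3 at 98.8%. At the other end stood EFTUD1 at 0.415% and ELMO1 at 0.0684%. Exons, introns and UTRs were not analysed here.

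**Figure D3:**
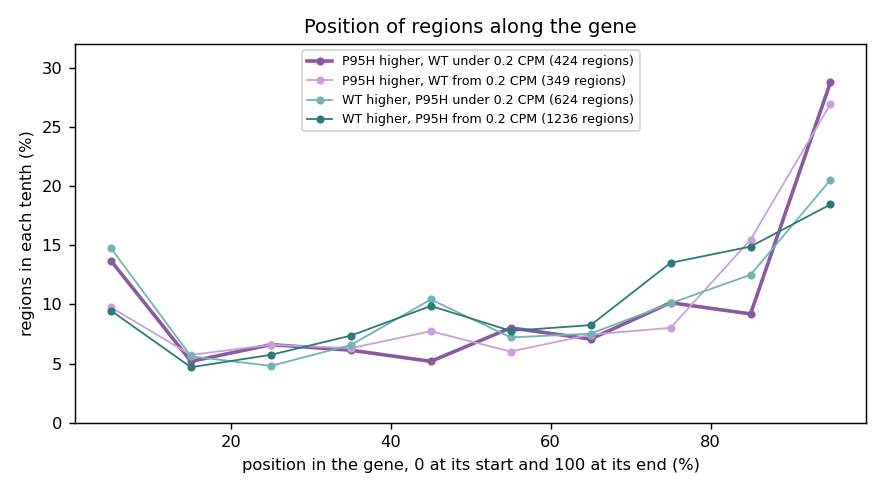
Share of regions (vertical axis, percent) in steps of 10% of the gene from its start to its end (horizontal axis), for the 424 regions and the 3 other classes of protein-coding regions. The last 10% holds 28.8% of the 424 regions, the highest share of the 4 classes.

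Of the 382 host genes, 103 (26.96%) also held protein-coding windows that were higher in WT, close to the 79 of 298 genes (26.5%) for the other windows higher in P95H. Windows higher in P95H from 0.2 CPM in WT lay in 61 host genes, 20 of which are among the 103, and 238 host genes held no other protein-coding window. Where both directions met in a gene, distances ran from a region's window start to the nearest start of a window higher in WT. The median was 6694 bases. The distance was within 100 bases in 7 genes. Between starts it was 20 bases in TNKS1BP1, 21 in HNRNPA1, 29 in TUBA1A, 32 in HNRNPUL2, 53 in PNN, 68 in SHISA9 and 98 in PRKCB. These values are not gaps. Windows of the regions spanned 20 or 21 bases, so the windows in TNKS1BP1 and HNRNPA1 may touch. In the other 5 genes the gaps are smaller than the values given. TNKS1BP1, a tankyrase-binding protein, had 2.3 ± 1.93 CPM in P95H and 0.19 CPM in WT in its region. PNN, a splicing-related protein of nuclear speckles, had 0.58 ± 0.37 CPM in P95H and 0.13 CPM in WT, and 11 windows higher in WT.

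Some regions cannot be assigned to 1 gene. A total of 45 regions lay under a gene on the opposite strand, among them those of CD84, POLL, EIF4G2 and MED12L. Another gene of the same strand shared 24 regions. In 13 windows the table listed a window on the opposite strand at the same place, with P95H means that differed by at most 0.1 CPM. The WT means could differ more, with 0.03 CPM at RBM28 and 0.39 CPM on its other strand, which lies outside the limit, and 0.15 CPM at EAF1 and 0.08 CPM on its other strand. MAT2A, which makes S-adenosylmethionine, and GGCX on the other strand both had 1.35 ± 1.17 CPM in P95H and 0.11 CPM in WT. NDUFB9 and MTSS1 had 2.09 and 2.06 CPM in P95H and 0.07 CPM each in WT. Across the table, 326 windows formed 1038 overlapping pairs on opposite strands, and all pairs pointed in the same direction. In 78.4% of the pairs the mean of the higher genotype differed by under 20%. Strand use in counting is not stated, and which strand the reads at these places came from was not tested.

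Some copies of a gene gave near-equal values. In 9 families of similar genes, listed after the values were seen, 23 genes held 26 regions. HNRNPA1 and HNRNPA1L2 both had 0.86 ± 0.72 CPM in P95H and 0.12 CPM in WT, and KIF4A and KIF4B both had 0.53 ± 0.37 CPM in P95H. Regions of FAM72A, FAM72B, FAM72C and FAM72D had 1.42, 1.43, 1.43 and 1.41 CPM in P95H, and NOMO1, NOMO2 and NOMO3 had 1.42, 1.57 and 1.51 CPM. The histone genes HIST2H2BE and HIST2H2BF had 2.14 and 2.16 CPM in P95H and 0.1 CPM each in WT. Regions at different places of such genes had different levels. FAM72B had a second region at 0.47 CPM in P95H, and GOLGA8A had regions at 0.63 and 1.54 CPM. NUDT3 had 0.76 CPM, and the readthrough transcript RPS10-NUDT3 had 3.29 CPM at another place. The histone genes HIST1H2BN and HIST3H2BB had 1.81 and 2.04 CPM in P95H and 0.02 CPM each in WT. Reads that match several copies may have been counted at each, so such regions are uncertain as separate members.

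RNA levels of the host genes were a measure that the choice of windows did not use. Of the 382 host genes, 375 had enough counts, and edgeR's quasi-likelihood test compared P95H with WT (2 libraries each) over all genes. In such bulk samples, fewer cells with a transcript and less of it per cell cannot be told apart. None of the 375 was higher and none lower at an adjusted p under 0.05, where 0% and 0% of the 22007 genes tested passed. At an unadjusted p under 0.05 there were 2 host genes (0.533%), against 1.03% of all genes. By DESeq2 0 host genes passed the threshold, and 1 had an unadjusted p under 0.05. The 2 from edgeR, named after their values were seen, were GOLGA8A and PDF. The host genes had a median log2 change of -0.02 and all genes one of 0.00205, and 98.9% of the host genes lay within 0.5 of 0, against 88.8% of all genes. Host genes and all genes were not matched for RNA level, so no greater stability of the host genes is drawn from these shares. Of the host genes, 224 were negative and 151 positive. The same split was not counted for all genes, so no shift of the host genes is drawn from it.

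The libraries differed by replicate number. Protein-coding mitochondrial genes took 1.38% of the counts in P95H replicate 1 and 1.38% in WT replicate 1. They took 4.30% in P95H replicate 2 and 4.50% in WT replicate 2, so the pairs of equal number were also compared within themselves. The uninduced sample had 4.14%, nearer to the replicate 2 libraries. The host genes had a median log2 change of -0.01 in the replicate 1 pair and -0.03 in the replicate 2 pair. With the replicate number as a term in the fit, 0 host genes were higher, against 0.186% of all genes, and 2 were lower (0.533%), against 0.195% of all genes. At an unadjusted p under 0.05 there were 33 (8.80%), against 8.45% of all genes. The share lower was thus above that of all genes, but rests on 2 genes. The 18 lists were counted over all their tested genes, with or without a region. Their counts stand beside the 0.186% higher and 0.195% lower of all genes, and no more than 2 of the passing genes are host genes. No gene of the lists passed without the term. With it, megakaryocyte and platelet genes had 0 higher and 4 lower of 23 tested, cytoskeletal genes 0 higher and 2 lower of 61, splicing regulators and hnRNPs 1 higher and 0 lower of 47, and glycolytic genes 0 in either direction of 47. Myeloid and transcription factor genes had 0 higher and 2 lower of 41, erythroid genes 0 and 1 of 32, cell cycle genes 0 and 1 of 66 and translation factors 1 and 0 of 42, and the other 10 lists had none.

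The 2 lower host genes were THBS1 and PRKCB. THBS1 stood at 1139 and 2893 CPM in P95H replicates 1 and 2, at 1627 and 5033 CPM in WT replicates 1 and 2 and at 2490 CPM in the uninduced sample. P95H was lower within either pair, by log2 values of -0.51 and -0.80, while the groups overlapped because the replicate 2 libraries were higher in both. The log2 change was -0.72 (SE 0.60, edgeR adjusted p = 0.9999) without the term and -0.65 (SE 0.08, edgeR adjusted p = 5.14e-06) with it. As single libraries were left out of the fit without the term it ranged from -1.55 to 0.31, and it was 0.31 without WT replicate 2. PRKCB, a protein kinase C of blood cells, stood at 217 and 260 CPM in P95H, at 275 and 348 CPM in WT and at 235 CPM in the uninduced sample. Its groups did not overlap, with log2 values of -0.34 and -0.42 within pairs and a change of -0.37 (SE 0.07, edgeR adjusted p = 0.00766) with the term. Without the term it was -0.38 (SE 0.16, edgeR adjusted p = 0.9999). In HITS-CLIP the PRKCB region had 1.09 ± 0.65 CPM (SEM) in P95H and 0.14 CPM in WT, and the gene also held 1 window higher in WT.

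Host genes of the highest regions did not pass the RNA-seq test. STRADB stood at 12.2 and 11.7 CPM in P95H and 13.6 and 10.8 CPM in WT, a log2 change of -0.02 (SE 0.18). ELMO1 stood at 144 and 139 CPM in P95H and 137 and 136 CPM in WT, a log2 change of 0.06 (SE 0.10). CD84 stood at 229 and 278 CPM in P95H and 265 and 329 CPM in WT, a log2 change of -0.22 (SE 0.15), with groups that overlapped. For all 3 the change was within 1.5 standard errors of 0. Among the 76 named host genes that were tested, the log2 change ranged from -0.72 for THBS1 to 0.20. RPS10-NUDT3 and NPIPA7 had 0 counts in all 5 RNA-seq libraries, and their CLIP means in P95H were 3.29 and 1 CPM. NPIPB4, a relative of NPIPA7, had a CLIP mean of 0.99 CPM in P95H. Whether RNA-seq reads shared with overlapping or similar genes went uncounted was not tested.

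**Figure D4:**
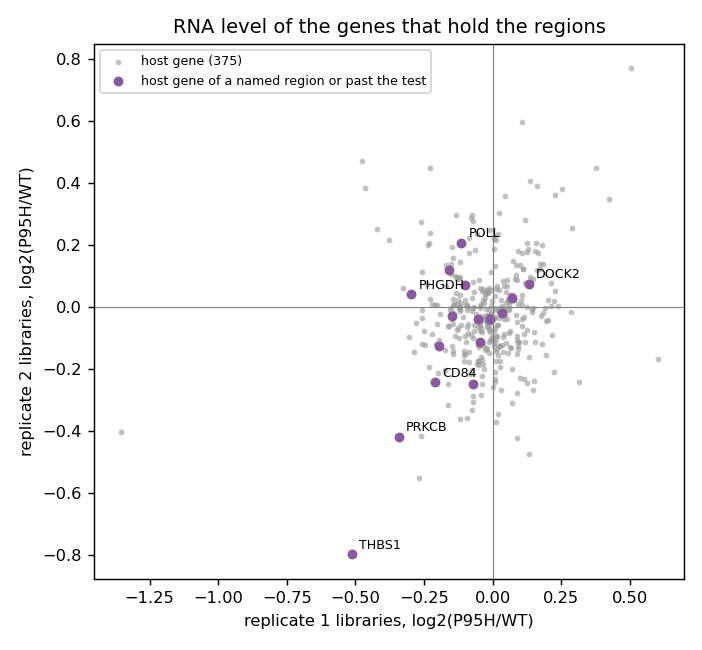
RNA-seq log2 change of P95H over WT for each tested host gene in the replicate 1 pair (horizontal axis) and the replicate 2 pair (vertical axis), with 0.1 CPM added before taking log2. THBS1, at -0.51 and -0.80, and PRKCB, at -0.34 and -0.42, are marked, and the medians of the 375 genes are -0.01 and -0.03.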

How the data were processed

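HITS-CLIP values came from the authors' comparison of 4 P95H with 4 WT samples, deposited as mean CPM per genotype with its standard error, a log2 change of P95H over WT and an adjusted p-value, per the file headers. The sources do not state how p was adjusted or which total CPM refer to, so the depth is unknown. RNA-seq values are raw counts per gene that the authors deposited. The submitters' processing notes name GRCh38.p3, STAR 2.5.3a, TopHat2 2.0.14 and edgeR without roles. Strand use in counting is not stated there.

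The 8324 entries repeated 224 positions, which left 8100 windows. Bounds on the top library's share took SEM as SD divided by the square root of 4, with values that cannot be negative, and held on simulated splits. For RNA-seq, edgeR 4.0.16 in R 4.3.3 was used (filterByExpr, TMM, quasi-likelihood test, two-sided, Benjamini-Hochberg adjustment over 22007 genes) with limma 3.58.1, and DESeq2 1.42.0 as an alternative. P95H against WT used 2 libraries each, and the uninduced sample is given as levels. CPM of host genes are TMM-scaled. Tables and figures used Python 3.11.15, pandas 2.3.3, numpy 2.4.6 and matplotlib 3.10.9.

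Regions were named as the 10 highest P95H means, the 6 lowest SEM ratios, genes with 3 or more regions, 3 windows on either side of the limit and up to 4 genes per list, a selection of which is printed, and others were named after their values were seen. The windows and lists were chosen with earlier results of these data known. The SEM and SE values reflect the spread between libraries, and the floor of 3 counts covers counting error only. Other limits on WT, merging rules, scalings, filters and left-out libraries were tried.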

Additional observations from a re-analysis of the deposited data

Results flagged for a closer look

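In 243 of the 508 windows (47.8%) the highest P95H library stood apart from the other 3, since its gap to the next, divided by the range of the 4, exceeded the 95% critical value of Dixon's test even at the most even split that the SEM allows. The same held for the higher genotype in 27.4% of the other windows higher in P95H, in 61.1% of those higher in WT with P95H under 0.2 CPM and in 33.7% of the remaining windows higher in WT, so it is not particular to the 508. Chance flags at most about 1 in 20 groups of normally distributed values, a rate that covers both ends while only the highest library was examined. Sparse CPM need not be normally distributed, and many of the 508 windows overlap, so these are not 243 separate cases. The windows were also chosen through the authors' comparison, which used the same P95H values, so this rate is no yardstick for the 47.8%. Among the 10 highest regions, 6 were of this kind, and the lowest possible ratio was 0.993 in STRADB, 0.907 in SND1, 0.949 in EEF2, 0.993 in RLF, 0.993 in TTC3 and 0.943 in ELMO1.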

How the results depend on the processing

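The 424 regions became 244 with a WT limit of 0.1 CPM and 600 with one of 0.5 CPM, and numbered 390 to 434 under a stricter adjusted p, another choice of transcript class and other merging rules. The count of windows with 1 library over 50% was 437, and 486 with SEM taken over 3 libraries. The count of host genes called, 0, became 2 with the replicate block and 1 with no filter on low counts (THBS1, edgeR adjusted p = 4.27e-05 there, 5.14e-06 to 0.99998 over its alternatives), and it was 0 under DESeq2, its size factors and each left-out replicate. For the replicate block, same-numbered libraries deviated together with a correlation of 0.654 across genes, which is a hint from the data, and the labels do not say what the numbers share. The median log2 change of the host genes, -0.0214, ranged from -0.0409 to -0.0156 as each replicate was left out.

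Of 128 settings for single genes 112 kept their direction. The 16 reversals came from leaving out a replicate, over which the log2 change ranged from -0.15 to 0.067 for CAND1, -0.12 to 0.32 for DOCK2, -0.24 to 0.068 for ENO1, -0.54 to 0.33 for PHGDH, -0.075 to 0.17 for POLL, -0.098 to 0.11 for RLF, -0.14 to 0.11 for SND1, -0.19 to 0.16 for STRADB, -1.55 to 0.31 for THBS1 and -0.055 to 0.0078 for TTC3. THBS1 was positive without WT replicate 2. The cause of these changes was not tested. Motifs in windows extended by 10 bases were not run. With 2 libraries a group, RNA changes below the spread between replicates were not detectable.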

Other observations

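In all, 7 host genes had too few RNA-seq counts to be tested. Besides RPS10-NUDT3 and NPIPA7, CFAP54 had 5 and 10 counts in P95H and 2 and 3 in WT, and MTRNR2L1 had 3 and 4 in P95H and 1 and 2 in WT. SHISA9 had 1 and 1 in P95H and 2 and 2 in WT, PNMA2 had 2 and 1 in P95H and 4 and 1 in WT, and TMEM212 had 3 and 1 in P95H and 0 and 0 in WT. Each held a window in P95H HITS-CLIP. Whether reads shared with overlapping or similar genes left these counts low was not tested.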
